A study of Mus musculus with 12 samples.

Results

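The 10 genes described here belong to the programme of the plasma cell, the antibody-secreting end stage of the B cell lineage, and were taken by symbol from the table of read counts: Jchain, Mzb1, Xbp1, Sdc1, Prdm1, Irf4, Tnfrsf17, Derl3, Pou2af1 and Tnfrsf13b, 10 of the 49315 genes of the table. RNA of epididymal white adipose tissue (eWAT) was sequenced from 12 male mice, with 1 library per mouse and 3 mice in each of 4 groups. All mice received the high-fat diet (HFD, 60% fat) for 12 weeks. The flox mice carry Mir181a2b2 flox/flox alleles and no Cre is named for them, and the KO mice are Mir181a2b2-/- in every tissue. Each genotype was injected weekly into the peritoneum with vehicle or with methotrexate (MTX), an antifolate drug, at 1 mg/kg. The comparison addressed here is that of MTX with vehicle libraries, within each genotype and averaged over both, followed by KO with flox. The strain background and the age of these mice are not given in the sources used here. A library is named after its group and its number in the labels (for example, replicate 2 of flox MTX), and values follow the order of these numbers: 1, 3 and 4 in flox vehicle, 1, 2 and 4 in flox MTX, 1, 2 and 3 in KO vehicle and 2, 3 and 4 in KO MTX.

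An activated B cell becomes a plasma cell when IRF4 and BLIMP1, the product of Prdm1, switch off the B cell programme and XBP1 enlarges the endoplasmic reticulum (ER), where immunoglobulin chains are folded, assembled and exported. Plasma cells then depend on survival signals from the cytokines BAFF and APRIL, which bind the receptors BCMA (Tnfrsf17) and TACI (Tnfrsf13b). Adipose tissue holds B cells and some antibody-secreting cells, yet several of these genes are also used elsewhere: Xbp1 in many secretory cells, Sdc1 in epithelium and other cells, and Prdm1 and Irf4 in T cells and myeloid cells.

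On GRCm38, Jchain lies at chr5:88519809-88527891, Derl3 at chr10:75893413-75895941, Xbp1 at chr11:5520659-5525893, Prdm1 at chr10:44437177-44528501, Irf4 at chr13:30749226-30766976 and Pou2af1 at chr9:51213708-51240080. Sdc1 lies at chr12:8771323-8793715, Tnfrsf17 at chr16:11313812-11320074 and Tnfrsf13b at chr11:61126755-61149372. Mzb1 is the one of the 10 whose exons overlap those of another gene, Spata24, on the same strand. Promoters of 9 of the 10 genes were matched by symbol in RefSeq (GRCm38.p6), each a window of 300 bases that ends just past the gene start. They were searched on both strands for 3 motifs: the octamer ATTTGCAT of the OCT factors that Pou2af1 serves, the unfolded protein response element TGACGTGG, and the ER stress element, in which CCAAT and CCACG stand 9 bases apart. The octamer was in 0 of the 9 and in 1.74% of all 32851 promoters. The unfolded protein response element was in Pou2af1 only, at -61 to -54 from its RefSeq start (51213690, counted as 0), and in 0.676% of all promoters. The ER stress element was in Derl3 only, at -156 to -138 from its RefSeq start (75893398) on the reverse strand, and in 39 promoters in all, or 0.119%. Of 34 promoters from the list of ER stress and folding genes used below, 8 hold the ER stress element: Calr, Creld2, Dnajc3, Ero1b, Hsp90b1, Hspa5, Pdia6 and Syvn1. A match is a run of letters and was not tested as a binding site. The promoters of Derl3 and Pou2af1 are shown with the matched letters in capitals, and that of Jchain, the gene with the widest range of levels, for comparison, each 5′ to 3′ on the strand of its gene.
Derl3, chr10:75893148-75893447, plus strand: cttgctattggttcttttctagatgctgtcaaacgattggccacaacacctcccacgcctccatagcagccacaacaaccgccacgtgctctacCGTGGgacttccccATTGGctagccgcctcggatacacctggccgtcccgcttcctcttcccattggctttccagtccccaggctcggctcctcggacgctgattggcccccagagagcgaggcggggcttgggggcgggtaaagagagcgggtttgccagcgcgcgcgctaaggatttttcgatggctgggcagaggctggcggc
Pou2af1, chr9:51213440-51213739, plus strand: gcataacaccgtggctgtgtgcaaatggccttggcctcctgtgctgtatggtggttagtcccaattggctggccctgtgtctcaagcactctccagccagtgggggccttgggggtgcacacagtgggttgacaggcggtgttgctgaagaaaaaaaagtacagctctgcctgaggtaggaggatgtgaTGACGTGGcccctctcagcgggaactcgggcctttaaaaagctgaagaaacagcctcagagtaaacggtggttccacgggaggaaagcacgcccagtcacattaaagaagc
Jchain, chr5:88527848-88528147, minus strand: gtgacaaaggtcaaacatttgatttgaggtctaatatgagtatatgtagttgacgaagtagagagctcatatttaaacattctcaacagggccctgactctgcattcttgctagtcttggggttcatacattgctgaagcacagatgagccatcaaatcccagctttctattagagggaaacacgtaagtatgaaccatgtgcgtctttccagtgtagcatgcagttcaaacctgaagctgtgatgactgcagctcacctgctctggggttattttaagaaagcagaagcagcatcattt

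All 10 genes had counts in every library, with 8 counts (Tnfrsf17) as the fewest, and all 10 were among the 18702 genes that passed the filter on low counts. The libraries held between 19495310 and 23976469 counts. Values are CPM, counts relative to the TMM-scaled size of the library, and a count of 0 would allow up to 3 counts, or 0.118 to 0.187 CPM, for counting error only. A gene was called where edgeR gave an adjusted p (Benjamini-Hochberg) below 0.1 together with a change of 1.5-fold or more. The deleted microRNA genes do not check the genotype labels here, since Mir181b-2 had 0 counts in all 12 libraries and Mir181a-2 had 2 counts in flox MTX replicate 4 and 0 in the others. In bulk tissue, fewer cells of a type and less RNA per cell cannot be told apart. Summed levels of gene lists are CPM of all counts, without the TMM factor. The 12 adipocyte markers were present in every library and summed to 10929 to 47619 CPM. Transcripts of the epididymis, the organ beside this fat, reached summed levels of 1675 to 14526 CPM in flox vehicle libraries and 502 CPM in flox MTX replicate 1, against 26.9 to 51.1 CPM elsewhere. The summed CPM of 12 macrophage markers was 644 to 1209 in flox vehicle and 878 to 5691 in flox MTX libraries, and 4277 to 7083 in KO vehicle and 5943 to 9992 in KO MTX libraries. Both moved with the comparisons that use the flox vehicle libraries, and their part in the results was not tested.

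Jchain, Mzb1 and Derl3 act in the making and export of antibody. Jchain encodes the joining chain that links IgA and IgM into polymers, and its level was 43.6, 4.09 and 39.0 CPM in flox vehicle and 92.3, 933 and 352 CPM in flox MTX libraries. In KO mice it was 16.4, 19.02 and 15.5 CPM with vehicle and 59.4, 148 and 42.7 CPM with MTX. Within each genotype every MTX library was above every vehicle library, and 5 of the 6 MTX libraries were above all 6 vehicle libraries. The exception, KO MTX replicate 4, lay just below flox vehicle replicate 1. The group means were 28.9 ± 21.6 and 459 ± 430 CPM in flox mice and 17.0 ± 1.82 and 83.2 ± 56.4 CPM in KO mice (SD, n = 3 each).

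Mzb1, an ER chaperone partner that helps assemble and secrete IgM, had 4.95, 2.08 and 2.17 CPM in flox vehicle and 1.70, 47.3 and 7.69 CPM in flox MTX libraries. Its KO levels were 1.41, 1.95 and 0.984 CPM with vehicle and 1.52, 11.5 and 4.24 CPM with MTX. One MTX library of each genotype, flox replicate 1 and KO replicate 2, therefore stayed within or below the range of the vehicle libraries, whereas both were above it for Jchain. Its values are uncertain because of the bases it shares with Spata24. Derl3 encodes a derlin that removes misfolded proteins from the ER. It was at 2.30, 7.95 and 3.92 CPM in flox vehicle and 2.41, 13.3 and 3.56 CPM in flox MTX libraries, and at 1.86 to 2.80 CPM in KO vehicle and 2.04 to 3.42 CPM in KO MTX libraries. Outside flox MTX replicate 2 and flox vehicle replicate 3, no library was above 3.92 CPM. Flox vehicle replicate 3 was also the library with the most epididymal transcripts, and their part in its Derl3 level was not tested.

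Of the others, 4 encode factors that control transcription and 3 encode surface proteins. Xbp1, the activator of secretory genes that is spliced on ER stress, ranged from 133 to 241 CPM in flox vehicle, 161 to 209 CPM in flox MTX, 147 to 152 CPM in KO vehicle and 168 to 179 CPM in KO MTX libraries. Its highest library was 1.82 times its lowest, the smallest range of the 10 genes, against 228 times for Jchain. Gene counts do not separate the spliced from the unspliced form of Xbp1.

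Prdm1 was at 1.22, 1.85 and 2.63 CPM in flox vehicle and at 4.30, 9.27 and 3.13 CPM in flox MTX libraries. In KO mice it was at 3.33, 5.29 and 5.20 CPM with vehicle and 8.05, 8.75 and 7.34 CPM with MTX. The MTX libraries were the higher ones in both genotypes, without overlap, and KO MTX libraries varied little (8.05 ± 0.706 CPM, SD, n = 3). Irf4, a dose-dependent switch of B cell fate, was at 6.38, 2.05 and 7.62 CPM in flox vehicle and 8.69, 26.1 and 13.1 CPM in flox MTX libraries. Its KO levels were 6.55 to 8.77 CPM with vehicle and 8.65 to 14.4 CPM with MTX, where the lowest MTX library fell inside the vehicle range. Pou2af1, the B cell coactivator OBF1, was at 6.42, 2.05 and 2.86 CPM in flox vehicle and 4.35, 37.8 and 10.8 CPM in flox MTX libraries. In KO mice Pou2af1 was at 1.91, 6.90 and 2.25 CPM with vehicle and at 3.13, 34.0 and 11.1 CPM with MTX, so that its lowest MTX library was inside the vehicle range in both genotypes.

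Sdc1 encodes syndecan-1 (CD138), the proteoglycan by which plasma cells are usually recognised. It was at 15.2, 26.7 and 26.3 CPM in flox vehicle and 43.1, 49.9 and 15.3 CPM in flox MTX libraries, against 54.9, 66.4 and 115 CPM in KO vehicle and 95.7, 104 and 74.0 CPM in KO MTX libraries. Every KO library was above every flox library, and the vehicle and MTX ranges overlapped within each genotype. The macrophage marker Cd68 had a like order, at 27.3 to 43.3 CPM in flox vehicle, 17.9 to 257 CPM in flox MTX, 353 to 756 CPM in KO vehicle and 432 to 754 CPM in KO MTX libraries. Tnfrsf17 (BCMA), a receptor largely restricted to plasma cells, had the fewest counts, at 0.315 to 0.477 CPM in flox vehicle libraries and 0.567, 3.14 and 1.00 CPM in flox MTX libraries. With 0.504 to 0.889 CPM in KO vehicle and 0.348 to 0.563 CPM in KO MTX libraries, it was the only gene of the 10 with a lower mean under MTX in KO mice. Tnfrsf13b (TACI), carried by B cells as well as plasma cells, was at 3.99, 1.61 and 5.22 CPM in flox vehicle and 6.05, 25.8 and 7.88 CPM in flox MTX libraries. Its KO levels were 7.41 to 13.5 CPM with vehicle and 11.5 to 24.1 CPM with MTX, and these ranges overlapped.

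**Figure D1:**
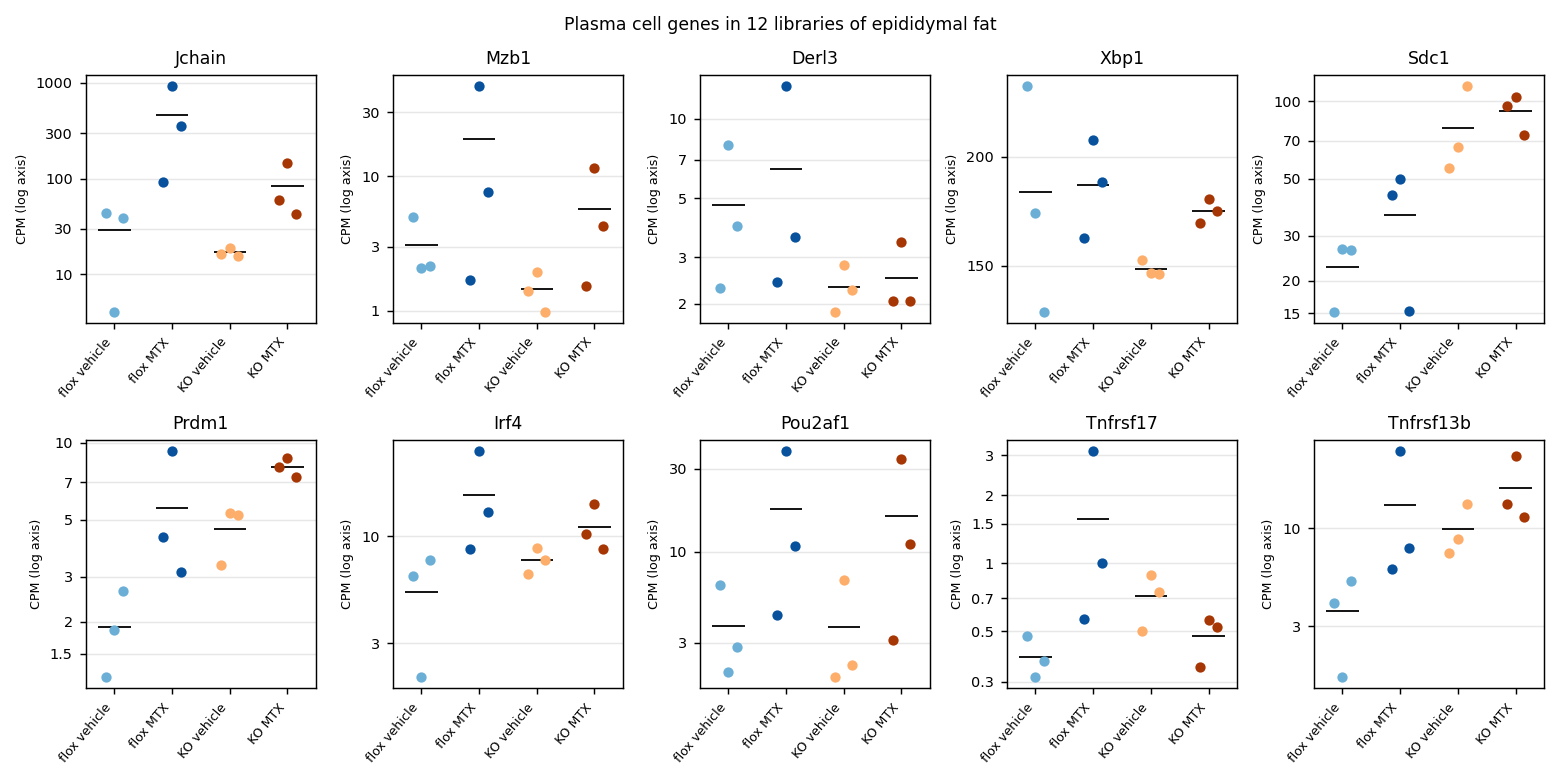
Level of each of the 10 genes in CPM on a log axis, with 1 point per library and a line at the mean of the 3 libraries of a group. Jchain was higher in all MTX libraries than in the vehicle libraries of the same genotype, whereas Xbp1 kept between 133 and 241 CPM throughout.

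Levels were not even among the MTX libraries. Flox MTX replicate 2 was the highest of the 12 libraries for 8 of the 10 genes and the highest of the flox MTX libraries for all 10, and KO MTX replicate 3 was the highest of the KO MTX libraries for all 10. The same libraries had the highest summed B cell markers (14 genes) of their groups, 506 and 533 CPM, against 41.7 and 153 CPM in the other flox MTX libraries and 96.6 and 179 CPM in the other KO MTX libraries. Vehicle libraries had 32.6 to 63.9 CPM of these markers in flox and 59.7 to 136 CPM in KO mice. For B cell markers flox MTX replicate 1 was below 2 of the flox vehicle libraries, whereas for Jchain it was above all 3. Per CPM of B cell markers, here summed with the TMM factor as for Jchain itself, Jchain was 0.136 to 0.802 CPM in flox vehicle, 1.87 to 1.96 CPM in flox MTX, 0.122 to 0.278 CPM in KO vehicle and 0.241 to 0.608 CPM in KO MTX libraries. The flox groups did not overlap in this ratio, and the KO groups did.

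The immunoglobulin genes add the product of these cells. Igha, the heavy chain of IgA, was at 5.39 to 12.9 CPM in flox vehicle, 347 to 2970 CPM in flox MTX, 15.3 to 29.8 CPM in KO vehicle and 150 to 190 CPM in KO MTX libraries, and summed constant genes (12 genes) reached 11878 CPM in flox MTX replicate 2 against 1440 CPM or less in the vehicle libraries.

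**Figure D2:**
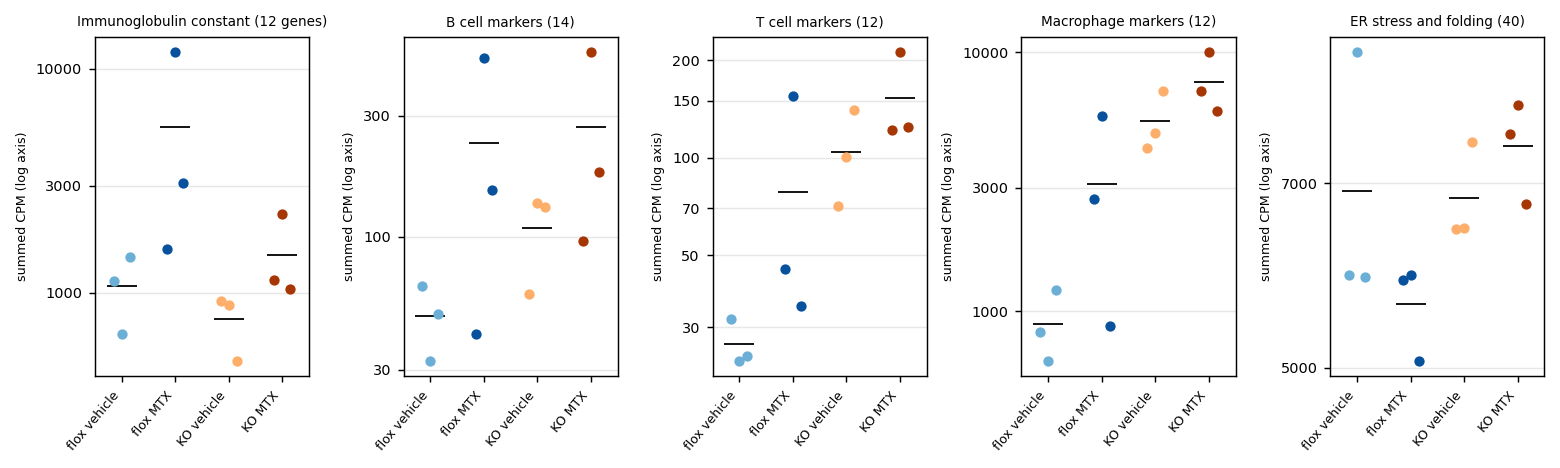
Summed CPM of 5 gene lists on log axes, with 1 point per library and a line at the group mean. Flox MTX replicate 2 is the top point of the immunoglobulin panel, and flox MTX replicate 2 and KO MTX replicate 3 stand above the others for B cell markers.

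Levels can be compared between genes only per length, here CPM per kb of exon. On that scale Xbp1 led the flox vehicle group at 56.0, followed by Jchain at 11.5, Sdc1 at 5.96, Mzb1 at 2.52, Derl3 at 2.37, Pou2af1 at 1.48, Tnfrsf13b at 1.27, Irf4 at 1.09, Tnfrsf17 at 0.475 and Prdm1 at 0.340. Xbp1 stood clear of the other genes, and from Jchain on each gene overlapped the next in this order in its libraries. In flox MTX libraries Jchain had 36.7, 371 and 140 CPM per kb and Xbp1 49.7, 64.3 and 57.6, so that Jchain was the higher in replicates 2 and 4 and the lower in replicate 1. The order was clear in KO vehicle libraries, where Jchain had 6.16 to 7.55, Sdc1 14.4 to 30.1 and Xbp1 45.2 to 46.8. In KO MTX libraries it was not, since Jchain at 23.6 and 17.0 was below Sdc1 at 25.1 and 19.4 in replicates 2 and 4 and at 58.7 was above both Xbp1 and Sdc1 in replicate 3.

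In flox mice 6 of the 10 genes were called higher under MTX and 0 lower. They were Jchain, Mzb1, Prdm1, Irf4, Tnfrsf17 and Tnfrsf13b. Of all 18702 genes tested, 24.2% were called in either direction and 8.09% were called higher. Jchain was 15.9-fold higher, with a log2 fold change of 3.99 ± 0.95 (SE) and an adjusted p of 0.0169. Log2 fold changes of the other genes called were 2.62 ± 1.02 for Mzb1 (adjusted p = 0.0951), 2.01 ± 0.59 for Tnfrsf17 (0.0358), 1.88 ± 0.59 for Tnfrsf13b (0.0466), 1.58 ± 0.48 for Irf4 (0.0427) and 1.55 ± 0.42 for Prdm1 (0.0269). Pou2af1 had a difference of similar size, 2.23 ± 0.95, but an adjusted p of 0.123. The secretory genes Derl3 and Xbp1 had log2 fold changes of 0.45 (95% interval -0.89 to 1.79) and 0.03 (-0.39 to 0.45), and Sdc1 one of 0.67 (-0.23 to 1.57), with adjusted p from 0.272 to 0.929. The median of the 10 genes was 1.73, against 0.05 for all genes. Libraries did not overlap, with MTX higher, for 5 of the 10 (Jchain, Prdm1, Irf4, Tnfrsf17 and Tnfrsf13b) and for 10.9% of all genes. For Tnfrsf17 the nearest libraries held only 11 counts (flox vehicle replicate 1) and 12 counts (flox MTX replicate 1).

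Calls for Jchain and Prdm1 remained when any single library was left out, with log2 fold changes of at least 2.95 and 0.98. The other 4 rested on single libraries: without flox MTX replicate 2 the log2 fold changes were 0.62 for Mzb1, 1.01 for Tnfrsf17, 0.96 for Tnfrsf13b and 1.04 for Irf4, and none of these was called. Without flox vehicle replicate 3 the same 4 calls were lost at log2 fold changes of 2.41, 1.88, 1.52 and 1.19. Over all genes, 4528 of 18702 were called with every library. The total was 4685 of 19532 without flox MTX replicate 2 and 2219 of 19024 without flox vehicle replicate 3. These totals, in either direction, apply to the list counts below as well. Totals for this comparison without any other single library are not given here. Mzb1 was also lost without flox vehicle replicate 1 or 4 (3.15 and 2.44), without any one KO vehicle library (2.63 each) and without KO MTX replicate 4 (2.63). Pou2af1, conversely, was called without flox MTX replicate 1 (2.69), KO MTX replicate 2 or KO MTX replicate 3 (2.24 each), and Sdc1 without flox MTX replicate 4 (1.04). The sign of Derl3 turned to -0.65 without flox MTX replicate 2, and that of Xbp1 to -0.05.

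In KO mice the same comparison called 0 of the 10 genes, and 0 of all genes, or 0%, by edgeR. Of all genes, 1491 had an unadjusted p below 0.05, and DESeq2 called 281, none of the 10 among them. Jchain was 4.90-fold higher under MTX with a log2 fold change of 2.29 ± 0.89 (adjusted p = 0.526), Pou2af1 4.34-fold with 2.12 ± 0.95 (adjusted p = 0.616) and Mzb1 3.95-fold with 1.98 ± 1.03 (adjusted p = 0.674). Unadjusted p was below 0.05 for 2 of the 10 genes, Jchain and Pou2af1. Prdm1 had a log2 fold change of 0.80 (95% interval -0.08 to 1.69), Tnfrsf13b of 0.73 (-0.51 to 1.97), Irf4 of 0.54 (-0.50 to 1.58), Xbp1 of 0.22 (-0.20 to 0.64), Sdc1 of 0.21 (-0.67 to 1.10) and Derl3 of 0.12 (-1.25 to 1.49). Tnfrsf17 had -0.58 (-1.86 to 0.71). Libraries did not overlap, with MTX higher, for Jchain, Prdm1 and Xbp1, or 3 of 10, and for 11.1% of all genes. The median was 0.63 over the 10 genes and -0.01 over all genes.

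**Figure D3:**
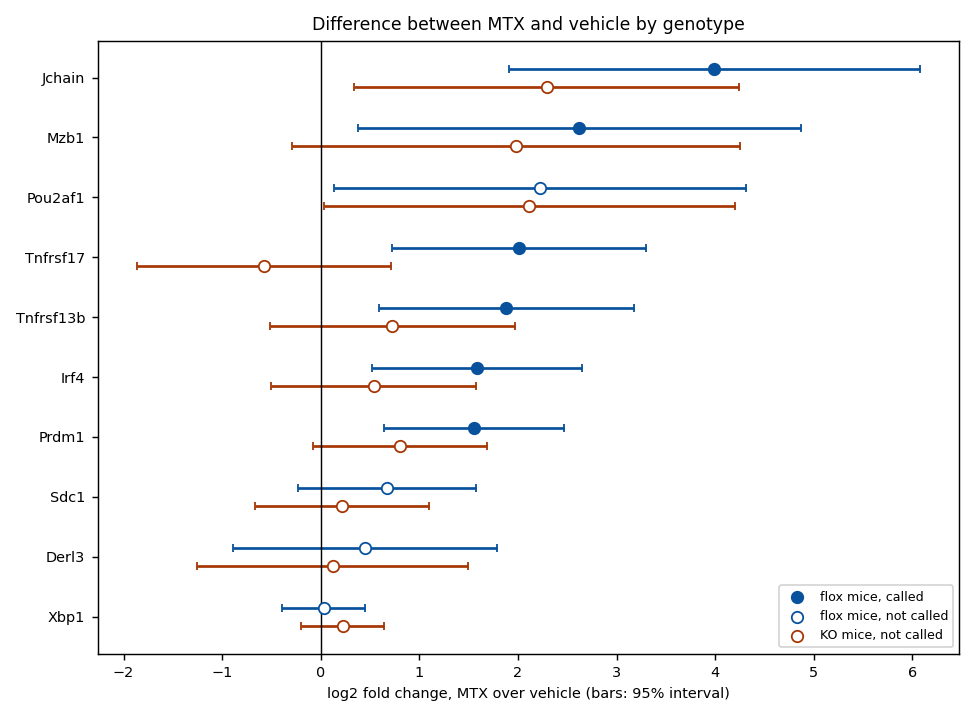
Log2 fold change of MTX over vehicle for each gene in flox and KO mice, with 95% intervals from the edgeR fit; filled points were called. Filled points are Jchain, Mzb1, Tnfrsf17, Tnfrsf13b, Irf4 and Prdm1 in flox mice and none in KO mice, and the intervals of both genotypes overlap for every gene except Tnfrsf17.

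The difference between the genotypes in the response to MTX was tested as an interaction. None of the 10 genes was called, against 0.989% of all genes (185), by edgeR. Tnfrsf17 came nearest, with an interaction of -2.59 ± 0.83 on the log2 scale (adjusted p = 0.191), the smaller response being in KO mice, and was the 1 gene of the 10 with an unadjusted p below 0.05. DESeq2 called it, and none of the other 9, where it called 1248 of all 18702 genes. For Jchain the interaction was -1.70 with a 95% interval of -4.35 to 0.95, and for Pou2af1 -0.11 (-2.96 to 2.74). By edgeR, a response confined to flox mice was therefore not shown for any of the 10 genes, and for Tnfrsf17 the tools differed.

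Averaged over both genotypes, 6 of the 10 genes were called higher under MTX and 0 lower. Of all 18702 genes, 14.5% were called in either direction, 826 of them higher and 1893 lower. Jchain was 8.83-fold higher (log2 fold change 3.14 ± 0.65, adjusted p = 0.0173), Mzb1 4.93-fold (2.30 ± 0.73, 0.0672), Pou2af1 4.50-fold (2.17 ± 0.67, 0.0632), Tnfrsf13b 2.47-fold (1.30 ± 0.41, 0.0650), Prdm1 2.26-fold (1.18 ± 0.29, 0.0297) and Irf4 2.08-fold (1.06 ± 0.34, 0.0685). Tnfrsf17, with log2 fold changes of opposite sign in the genotypes, averaged 0.72 ± 0.41 (adjusted p = 0.281). Jchain and Prdm1 kept their calls without any 1 of the 12 libraries. Mzb1, Irf4, Pou2af1 and Tnfrsf13b did not: the count of called genes fell to 2 without flox vehicle replicate 3, flox MTX replicate 2, KO vehicle replicate 1 or KO MTX replicate 3, and to 3 without KO vehicle replicate 2 or 3. Over all genes, 2719 of 18702 were called with every library. The total was 1555 of 19024 without flox vehicle replicate 3 and 2446 of 19532 without flox MTX replicate 2. Totals without any other single library are not given here, so the falls without a KO library cannot be set against the share of all genes. Single calls were also lost without KO MTX replicate 2 (Irf4, log2 fold change 1.09) and flox vehicle replicate 1 (Tnfrsf13b, 1.34), and Sdc1 was gained without flox MTX replicate 4 (0.63). With both libraries richest in B cell transcripts left out, flox MTX replicate 2 and KO MTX replicate 3, the count was 2 in the average as well as in flox mice. Of the 19450 genes tested then, 1849 were called in the average and 4708 in flox mice.

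Other genes of the lineage were described with lists chosen beside the 10. Of 20 further plasma cell genes, 8 were called higher and 1 lower in flox mice, with a median log2 fold change of 0.79. Of all genes, 8.09% were called higher. The count higher was 5 without KO vehicle replicate 1, 4 without flox MTX replicate 2 or flox vehicle replicate 1, and with flox vehicle replicate 3 left out it was 3. Zbp1, a sensor of nucleic acids, rose by 1.17 on the log2 scale (adjusted p = 0.00667) and Cd38, an ectoenzyme of plasma cells, by 1.23 (0.0230). Creb3l2, a transcription factor of secretory cells, was the one called lower, by 1.04 (0.0166). It had 91.4 to 224 CPM in flox vehicle, 71.8 to 76.5 CPM in flox MTX and 63.8 to 73.8 CPM in KO libraries. Its order in the flox vehicle libraries followed that of the epididymal gene Crisp1, at 3751, 9201 and 1165 CPM, and the part of these transcripts was not tested. In KO mice 0 of the 20 were called, and Ly6d had the smallest p with a log2 fold change of 2.49 (adjusted p = 0.594).

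Ligands and niche factors of plasma cells moved in the same comparison. In flox mice 7 of the 12 that could be tested were called higher and 0 lower. First by p was Cxcr4 (log2 fold change 2.17, adjusted p = 0.0132), the receptor that holds plasma cells in their niche. Il6ra (1.02, 0.0201) and Cd40 (1.66, 0.0264) came next. Among all genes, 8.09% were called higher. The count for this list was 4 of 13 then tested without flox MTX replicate 2 or flox vehicle replicate 1, and leaving out flox vehicle replicate 3 it was 2. Tnfsf13b, the gene of BAFF and so of the ligand of both receptors above, rose, with 1.57 to 2.99 CPM in flox vehicle and 3.06 to 10.5 CPM in flox MTX libraries (1.40, 0.0351). Tnfsf13, the gene of APRIL, had a log2 fold change of 0.86 (0.194), with 1.61 to 2.35 CPM in flox vehicle and 1.25 to 5.64 CPM in flox MTX libraries. In KO mice 0 of the 12 were called and the log2 fold changes of the 2 ligands were 0.05 and 0.27. BAFF receptor (Tnfrsf13c), a gene of B cells, had the smallest p there, at 2.31 (adjusted p = 0.607).

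Among the factors of the B cell stage, 6 of 14 were called higher and 0 lower in flox mice (median 0.98). First by p were Ciita (1.37, adjusted p = 0.0432), Ets1 (0.77, 0.0459) and Irf8 (1.15, 0.0492). The count was 0 without flox MTX replicate 2 (median 0.47), flox vehicle replicate 1 (1.16) or flox vehicle replicate 3 (0.98). Pax5, which BLIMP1 represses as plasma cells form, was at 2.05 to 5.29 CPM in flox vehicle and 2.55 to 43.8 CPM in flox MTX libraries (2.40, adjusted p = 0.118). Of the B cell markers 9 of 14 were called higher in flox mice (median 2.49), including Cd72 (2.12, 0.0384), Cr2 (3.66, 0.0424) and Cd79b (2.81, 0.0431). That count was 1 without flox MTX replicate 2 (median 1.43), 0 without flox vehicle replicate 3 and 5 when replicate 4 of that group was left out. The immunoglobulin constant genes had 7 of 11 called higher in flox mice (median 3.51), against 1 without flox MTX replicate 2 (median 0.80) and 1 without flox vehicle replicate 3. These counts too stand beside the 8.09% of all genes called higher. In KO mice 0 of either list was called (medians 1.90 and 2.18).

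The genes of ER stress, folding and export gave another result. Of 39 tested, 1 was called higher in flox mice, Edem1 (log2 fold change 0.62, adjusted p = 0.0515), which extracts misfolded glycoproteins. Its call was lost without flox MTX replicate 4, flox vehicle replicate 1 or flox vehicle replicate 3. The 1 called lower was Ern1 (-1.67, 0.0133), the sensor IRE1 that splices Xbp1. Of all 18702 genes, 1513 were called higher and 3015 lower. Without flox vehicle replicate 4 the counts among these 39 genes were 1 and 4. Their median was 0.04, against 0.05 for all genes, and their summed CPM was 5902 to 8894 in flox vehicle and 5064 to 5926 in flox MTX libraries. Ern1 had 60.6, 122 and 37.2 CPM in flox vehicle libraries and 16.2 to 32.7 CPM in all other libraries, and so followed the order of Crisp1 in the same way as Creb3l2. In KO mice 0 of the 39 were called. The smallest p there were those of Atf6 (0.36, adjusted p = 0.346), Ero1l (0.52, 0.354) and Ero1lb (0.71, 0.509), a sensor and a pair of oxidases of the ER, and the median was 0.18. Of the 8 genes with an ER stress element in the promoter, none was called in flox mice, among them Hspa5, the chaperone BiP, with a log2 fold change of -0.46 (adjusted p = 0.243).

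**Figure D4:**
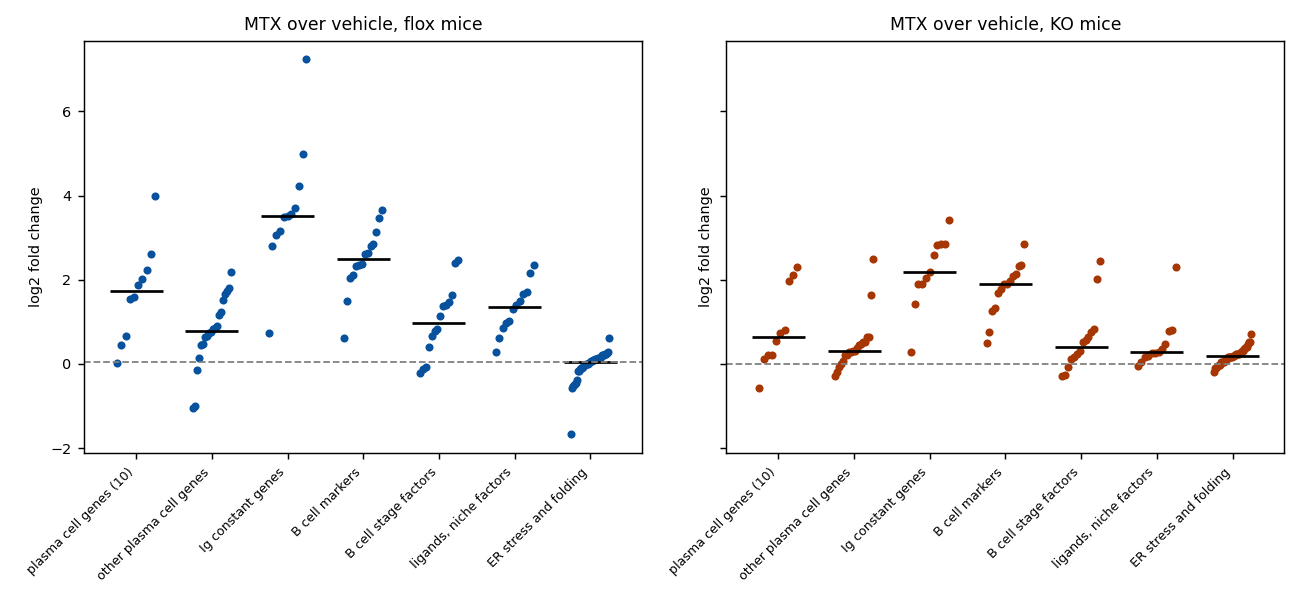
Log2 fold change of MTX over vehicle for the genes of 7 lists, with 1 point per gene, a black line at the median of the list and a dashed line at the median of all genes. In flox mice the 10 plasma cell genes have a median of 1.73 and the ER stress and folding genes one of 0.04; in KO mice the medians are 0.63 and 0.18.

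Markers of other cells moved with MTX too. In flox mice 7 of 12 T cell markers were called higher (median 1.80, Cd3e 1.91, adjusted p = 0.0321). The same held for 11 of 12 macrophage markers (median 1.93, C1qa 2.31, 0.0121). It also held for 7 of 12 dendritic cell genes (Tcf4 0.71, 0.0113) and 2 of 5 genes of lymph node stroma and vessels. Of all genes 8.09% were called higher. Without flox MTX replicate 2 the counts were 1 for T cell, 7 for macrophage and 3 for dendritic cell genes, and without flox vehicle replicate 3 they were 1, 4 and 2, with 1 stromal gene. Dendritic cell genes also numbered 3 without flox vehicle replicate 1. One of the stromal genes was Cxcl13, the chemokine that draws B cells into follicles, at 0.747 to 12.5 CPM in flox vehicle, 10.8 to 94.2 CPM in flox MTX, 2.57 to 6.10 CPM in KO vehicle and 8.35 to 68.2 CPM in KO MTX libraries (flox 3.49, adjusted p = 0.0451). Of 15 epididymal genes 11 were called lower (median -4.84), against 3 of 15 without flox vehicle replicate 3. Of 13 epithelial and mesothelial genes 5 were called higher and 6 lower, with Upk3b (1.90, 0.00656) and Krt8 (-3.51, 0.00672) first by p. None of 12 adipocyte markers was called. In KO mice 0 genes of these lists were called, and T cell markers had a median of 0.91 and macrophage markers one of 0.49. The part of each cell type in the plasma cell genes was not tested.

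Between genotypes under vehicle, 3 of the 10 genes were higher in KO mice and 0 lower, where 31.7% of all genes were called and 13.9% were called higher. Sdc1 was 3.46-fold higher (log2 fold change 1.79 ± 0.42, adjusted p = 0.00911), Prdm1 2.43-fold (1.28 ± 0.41, 0.0393) and Tnfrsf13b 2.75-fold (1.46 ± 0.58, 0.0830). The libraries of these 3 genes did not overlap. Nor did those of 2 genes that were not called, Tnfrsf17 (higher in KO mice) and Mzb1 (lower). For Tnfrsf17 the nearest libraries held 11 counts (flox vehicle replicate 1, 0.477 CPM) and 10 counts (KO vehicle replicate 1, 0.504 CPM). The share of all genes without overlap was not counted for KO against flox. Jchain had a log2 fold change of -0.76 (95% interval -2.65 to 1.12), and the 12 macrophage markers were all called higher in KO mice (median 2.59). The call for Sdc1 stayed without any 1 library (1.43 to 2.02). The call for Prdm1 was lost when flox vehicle replicate 1 was left out (1.05), as it was for replicate 3 of KO vehicle (1.19), and that for Tnfrsf13b without either of these (1.54 and 1.17), flox vehicle replicate 3 (1.10) or KO vehicle replicate 2 (1.55). Derl3 was called lower in KO mice without flox MTX replicate 2, at -1.02, where 6828 of all 19532 genes were called. Under MTX, 0 of the 10 and 0 of all genes (0%) were called by edgeR, where 4576 of all genes and 3 of the 10 had an unadjusted p below 0.05 and DESeq2 called 2769 and 3. These 3 were the same by both criteria: Sdc1 (1.34, adjusted p = 0.115), Jchain (-2.46, 0.137) and Tnfrsf17 (-1.71, 0.125). All 3 KO MTX libraries were above the flox MTX libraries for Sdc1 and below them for Tnfrsf17. For Tnfrsf17 the nearest libraries barely differed, at 0.563 CPM (13 counts, KO MTX replicate 3) and 0.567 CPM (12 counts, flox MTX replicate 1). Without flox MTX replicate 2, edgeR called 2 of the 10, Sdc1 (1.64) and Prdm1 (1.11), higher in KO mice. It then called 4064 of all 19532 genes in either direction. Without flox vehicle replicate 3 it called 1 of the 10, Jchain, lower (-2.46), and 1028 of all 19024 genes in either direction.

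Profiles over the 12 libraries were compared with those of all genes tested, as the root mean square difference of standardised log2(CPM + 0.1), which is 0 for an identical shape. Nearest to Jchain were the kappa constant gene Igkc (0.205), the kappa variable gene Igkv1-135 (0.231), Marco, a scavenger receptor of macrophages (0.261), Igkv12-44 (0.266) and Igkv10-96 (0.267), where the median gene differed by 1.43. Reads of immunoglobulin variable genes can be shared between near-identical copies. Of the other 9 genes, Irf4 was the nearest to Jchain (0.443, rank 35 of the genes tested), then Mzb1 (0.635, rank 233) and Pou2af1 (0.649, rank 252), while Sdc1 (1.47) was farther than the median gene. Nearest to Sdc1 were Acer3 (0.0986), a ceramidase, Metrnl (0.123), Tuba1c (0.130), Rab3il1 (0.152) and Cenph (0.156), with Prdm1 first among the 10 genes (0.619, rank 2008). Xbp1 had no close match, with Pex6 (0.523), Zfp809 (0.525), Grcc10 (0.531), Sun2 (0.550) and Zfp235 (0.580) nearest, and Mzb1 first among the 10 genes (0.819, rank 129). These are descriptions of 12 libraries that share groups, without a test.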

How the data were processed

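RNA-seq of eWAT covered 12 libraries in 4 groups of 3 mice, grouped by the labels. The authors trimmed the reads (Trimmomatic 0.36), aligned them with STAR 2.5.2b to mm10 (GRCm38) and deposited whole read counts per Ensembl gene from featureCounts (Subread 1.5.2), without normalization. Strand and multi-mapping settings are not given in the sources used here, so genes that overlap are uncertain. The labels give polyA RNA, the methods ribodepletion, and which applies is not known here.

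Tests used edgeR 4.0.16 under R 4.3.3: TMM, filterByExpr by group, 1 quasi-likelihood fit to the 12 libraries with 1 coefficient per group (8 residual degrees of freedom), F-tests with Benjamini-Hochberg adjustment over 18702 genes, with calls at an adjusted p under 0.1 and a change of 1.5-fold or more, one reading of the limit in the methods. The standard error is the log2 fold change divided by the square root of F. Summed lists are shares of all counts. On simulated counts for MTX against vehicle in flox mice, in which 200 of 18312 genes had a 4-fold change, edgeR recovered 173 and called 17 others, and DESeq2 181 and 80. Positions and exon lengths are those of GRCm38 in GENCODE M21.

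The 10 genes, the lists, the tests and the alternatives were chosen with earlier results of these data known. All 10 genes are named. Of the other lists, some but not all of the 3 genes of smallest p in the MTX comparisons are named. Genes of the B cell, immunoglobulin and niche lists and the 5 nearest profiles of Jchain, Sdc1 and Xbp1 are named as well. Cd68, Crisp1, Hspa5 and Pax5 were added for their values or role after these were seen. The settings varied were the tool (DESeq2 1.42.0), the scaling (RLE factors or library size alone), the filter (none, or a minimum of 10 counts throughout), a block for the replicate number, a fit to only the 6 libraries compared, other fold limits, and the libraries included.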

Additional observations from a re-analysis of the deposited data

Results flagged for a closer look

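None of the 10 plasma cell genes was called by edgeR in the interaction test, which asks whether the response to MTX differs between the genotypes. DESeq2 called Tnfrsf17, where it called 1248 of all 18702 genes. Groups of 3 are too small for a test of outlying libraries. Of the neighbouring lists, 2 genes passed the interaction test of edgeR, where 0.989% of all genes (185) passed. Neither call held under every setting. Igha had an interaction of -4.41 ± 0.88 on the log2 scale (SE, adjusted p = 0.0836): it was 151-fold higher under MTX in flox mice (called) and 7.07-fold higher in KO mice (adjusted p = 0.293, not called). Lyve1, a gene of lymphatic vessels and some macrophages, had an interaction of -2.43 ± 0.54 (adjusted p = 0.0970), with a log2 fold change of 2.22 in flox mice and -0.20 in KO mice. Both were called by DESeq2 (adjusted p 3.28e-05 for Igha and 0.0014 for Lyve1), with RLE factors (0.0793 and 0.0921) and without a filter (0.0153 and 0.0285). Library size alone called Igha (0.0901) but not Lyve1 (0.111). Neither was called with the replicate block, at -4.22 for Igha and -2.62 for Lyve1 (adjusted p 0.227 for each). The same held among genes with at least 10 counts in every library (adjusted p 0.206 for each). Without 1 library the interaction of Igha ranged from -4.89 to -3.48 (adjusted p 0.0401 to 0.293). Among these fits it was called only without flox vehicle replicate 4 or flox MTX replicate 1 or 4. That of Lyve1 ranged from -3.03 to -2.06 in the same fits (0.0144 to 0.293), and was called there only without flox vehicle replicate 4 or flox MTX replicate 4.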

How the results depend on the processing

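Among the values of single genes under alternatives, 1041 kept their direction and their side of the limits, 71 lost a call, 18 gained one and 44 changed sign. In flox mice 6 genes were called under MTX, with 2 to 7 when 1 library was left out, 2 without flox MTX replicate 2 and KO MTX replicate 3 together (chosen after seeing the data), and 1, Jchain, with the 6 libraries of the comparison alone. In the average of both genotypes the count was 2 to 7 with 1 library left out, 2 with that pair left out and 3 at a log2 fold change of at least 1.5. For KO against flox it was 1 to 4 under vehicle with 1 library left out and 1 at the log2 limit of 1.5. Under MTX the count was 0 to 2 with 1 library left out, 3 by DESeq2, 1 without a filter on low counts and 1 under a minimum of 10 counts throughout, which leaves 9 of the 10 genes. Of all genes, edgeR called 4064 of 19532 under MTX without flox MTX replicate 2, which gave the 2, and DESeq2 called 2769 of 18702. The interaction gave 1 by DESeq2, beside 1248 of all 18702 genes. In KO mice MTX gave 0 in every alternative. Totals over all genes are not given here for the 6 libraries alone, the log2 limit of 1.5, no filter or the minimum of 10 counts. Counts of the 10 genes under those settings therefore cannot be set against the share of all genes. Replicate numbers showed no clear pairing of mice, which 12 libraries are too few to settle. Residual correlations were -0.273 to 0.254 (median 0.035) in 12 pairs with the same number, against a median of 0.011 in 42 other pairs. Of the 12 libraries, 0 correlated best with a library of its own number. The fit with the replicate block called 2 of the 10 genes in flox mice and 1 in the average, where it called 2771 and 1157 of all 18702 genes. This fit gave KO responses of -0.060 for Derl3, KO against flox under MTX of 0.13 for Pou2af1, and interactions of 0.43 for Mzb1 and 0.86 for Pou2af1. Scaling by library size alone gave a median over all genes of -0.15 in flox mice, against 0.05 with TMM. It called 5 of the 10 genes there, beside 4373 of all 18702 genes. This scaling turned Xbp1 to -0.16, Pou2af1 in KO against flox under vehicle to 0.00023, and Xbp1 in KO against flox under MTX to 0.064. At least 10 counts turned Xbp1 to -0.014 in flox mice, and no filter turned Pou2af1 in KO against flox under vehicle to 0.0061. With the pair left out, Xbp1 and Derl3 stood at -0.051 and -0.65 in flox mice, Derl3 at -0.17 in KO mice and -0.41 in the average, and the interactions of Mzb1 and Derl3 at 0.37 and 0.49.

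Leaving out 1 library turned the sign of these log2 fold changes. For MTX in flox mice Xbp1 ranged from -0.15 to 0.29 and Derl3 from -0.65 to 1.05, and Derl3 from -0.17 to 0.28 in KO mice and from -0.27 to 0.59 in the average. For KO against flox Pou2af1 ranged from -0.84 to 0.60 under vehicle. Under MTX, Pou2af1 ranged from -1.31 to 1.09, Tnfrsf13b from -0.087 to 1.23, Mzb1 from -2.71 to 0.30 and Irf4 from -0.81 to 0.028. The interaction ranged from -0.067 to 0.37 for Xbp1, -0.93 to 0.78 for Derl3, -1.65 to 1.37 for Mzb1 and -1.29 to 1.11 for Pou2af1. The cause of these changes was not tested. Leaving out 1 library leaves a group with 2 mice, whose spread is taken from all groups.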
